A study of Mus musculus with 16 samples.

Results

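The integrated stress response was followed in liver through 10 genes: Atf4, Atf3, Atf5, Ddit3, Trib3, Chac1, Sesn2, Asns, Psat1 and Phgdh. They were chosen by symbol, and all 10 were found among the 46078 genes of the count table and passed the filter on low counts. The data are 16 poly(A) RNA-seq libraries from livers of mice labelled as strain C56B6/J, a spelling that differs from the C57BL6/J of the study's methods. The mice were male, and 8 weeks old when diets were assigned. For 16 weeks mice ate either control diet (CD) or a diet with 60% of calories from fat (HFD), and livers were harvested from fed mice or from mice fasted for 16 h. This gave the groups CD fed, CD fast, HFD fed and HFD fast, with 4 libraries each, and no transgene or drug was named for any of them. The question put to these genes was whether their transcripts follow fasting, diet, or both.

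In this pathway, kinases that sense amino acid shortage, unfolded protein in the endoplasmic reticulum (ER), viral RNA or lack of haem phosphorylate the translation factor eIF2. General protein synthesis then slows, while the mRNA of the transcription factor ATF4 is translated more. ATF4, usually paired with a C/EBP protein, activates genes for amino acid supply, redox balance and, if stress persists, cell death. Much of the control of ATF4 therefore lies in translation, which mRNA counts do not measure.

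The sequence that ATF4 and C/EBP proteins recognise together has the core TGATGNAA, read on either strand, where N is any base. A relative that differs at the fourth base, TGACGNAA, is close to the cAMP response element. Both were searched on both strands in the window from 250 bases before to 50 after each RefSeq gene start (build GRCm38.p6). A single stretch of bases cannot match both on the same strand in the same register. The core occurred in 3.97% of all 32817 promoter windows and the relative in 1.58%. All 10 genes matched a promoter by symbol, and the core was found in 4 of them, Chac1, Trib3, Asns and Atf3, each given as 30 bases on the gene's strand with the match in capitals. The windows lie at chr2:119351038-119351067 (plus strand) for Chac1, chr2:152344028-152344057 (minus strand) for Trib3, chr6:7693214-7693243 (minus strand) for Asns and chr1:191183425-191183454 (minus strand) for Atf3. The match began 193 bases before the start in Chac1, 23 before in Asns and 110 before in Atf3, and at transcribed base 15 in Trib3.
Chac1: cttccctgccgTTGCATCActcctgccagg
Trib3: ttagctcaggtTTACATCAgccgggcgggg
Asns: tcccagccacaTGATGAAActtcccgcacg
Atf3: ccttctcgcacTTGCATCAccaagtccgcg

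Chac1 and Atf3 carried the relative as well. The 250 bases before the Chac1 start (chr2:119350992-119351241, plus strand) are given because Chac1 is the gene that passed the test with fasting, and they hold both matches in capitals. The 250 bases before the start of Atf4 (chr15:80254934-80255183, plus strand), the gene that passed the test with diet, hold no match to either.
Chac1: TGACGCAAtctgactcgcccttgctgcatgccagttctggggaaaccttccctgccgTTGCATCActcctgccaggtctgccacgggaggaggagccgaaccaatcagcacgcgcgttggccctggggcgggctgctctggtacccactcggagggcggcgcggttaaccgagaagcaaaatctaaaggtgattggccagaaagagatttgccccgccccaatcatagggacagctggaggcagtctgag
Atf4: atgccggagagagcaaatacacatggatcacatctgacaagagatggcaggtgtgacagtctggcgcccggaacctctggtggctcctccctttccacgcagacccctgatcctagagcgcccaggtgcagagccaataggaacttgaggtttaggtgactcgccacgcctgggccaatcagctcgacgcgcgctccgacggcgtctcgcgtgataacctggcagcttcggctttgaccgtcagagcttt

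Library totals ranged from 41364448 to 57583153 counts. Levels are CPM values, each gene's count relative to the library total after TMM scaling (trimmed mean of M-values), and 3 counts, the detection floor, were 0.0536 to 0.0767 CPM. Hepatocyte markers summed to at least 77901 CPM in every library, while pancreas acinar markers summed to at most 2.0 CPM. Adipocyte markers summed to 70.3 CPM in HFD fast 2 and to between 0.356 and 15.1 CPM in the others. Nearly all of the sum in HFD fast 2 was Cfd (70.1 CPM), while the other adipocyte markers, Adipoq among them, were at most 0.0907 CPM there. Leaving out HFD fast 2 turned no sign and changed no call among the 10 genes in the pairwise comparisons that use this library, although Atf5 and Psat1 were then called with fasting on CD in the fit over all groups. Changes are log2 fold changes from edgeR's quasi-likelihood test, called at an adjusted p under 0.05 over all 15075 genes tested. In bulk liver, fewer cells of a type and less RNA per cell cannot be told apart.

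Divided by exonic length, the 10 genes spanned a mean over libraries from 188 CPM per kb for Atf5 to 0.0923 for Phgdh. Atf5 lay at the 98.4th percentile of tested genes in level per kb and Atf4 (31.6 CPM per kb) at the 91.8th. Trib3, Ddit3 and Sesn2 followed at 4.70, 3.92 and 3.47 CPM per kb. Neighbours in this order changed places between libraries, since Trib3 exceeded Ddit3 in 10 of 16 libraries and Ddit3 exceeded Sesn2 in 8, while Trib3 exceeded Sesn2 in 13. Chac1 (1.81), Atf3 (0.936), Asns (0.924), Psat1 (0.220) and Phgdh (0.0923 CPM per kb) were lower, and Atf3 exceeded Asns in 13 of 16 libraries although their means were alike. Of the 10 genes, 9 varied more within groups than the median tested gene, whose within-group SD was 0.21 on the log2 CPM scale. The SD was 1.31 for Asns, the 99.6th percentile, and 1.11 for Atf3, and it was lowest for Atf4 at 0.13, the 23.5th percentile.

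**Figure D1:**
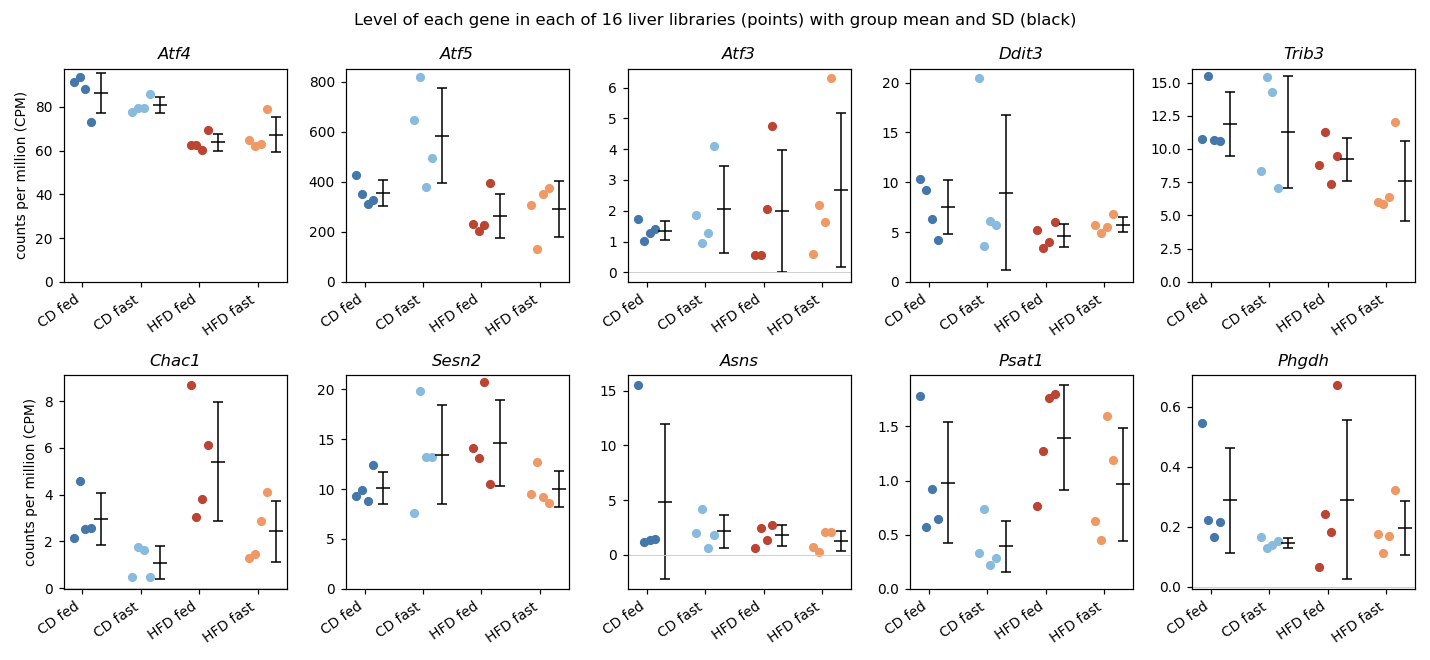
Level of each gene (CPM, linear axes) in the 16 liver libraries, 4 per group, with black marks for group mean and SD. Atf4 is lower in all 4 HFD fed than in all 4 CD fed libraries, Chac1 is lower in all 4 CD fast than in all 4 CD fed libraries, and a single CD fed library holds the high Asns value of 15.5 CPM.

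Fasting on CD changed 1 of the 10 genes by edgeR, while DESeq2 called 3 (Atf5, Chac1 and Psat1) beside 4265 of all genes. Chac1 fell by 1.45 on the log2 scale (SE 0.49, edgeR adjusted p = 0.0409), and the call was made for 25.2% of all genes tested in this comparison. HFD in fed mice also changed 1 of the 10, where Atf4 fell by 0.44 (SE 0.09, edgeR adjusted p = 0.00924) and 7.50% of all genes were called. Fasting on HFD and HFD in fasted mice changed 0 of 10 each by edgeR, beside 8.86% and 7.70% of all genes. At an unadjusted p under 0.05 these 2 comparisons held 2 and 4 of the genes, beside 3864 and 3905 of all 15075. DESeq2 called 0 and 2 (Atf4 and Atf5), beside 1985 and 1967 of all genes, and limma-voom called 0 in both. For the diet by fasting interaction edgeR called 0 of 10, beside 2.59% of all genes. At an unadjusted p under 0.05 the interaction held 1 of the 10, beside 3045 of all 15075. DESeq2 and limma-voom called 0 there too. The 4 libraries of one group and the 4 of the other did not overlap for 2 of the 10 genes with fasting on CD, 0 with fasting on HFD, and 1 for each of the diet comparisons, in fed and in fasted mice. Over all genes the shares without overlap were 25.4%, 16.7%, 15.7% and 14.0%. The shares of the 10 genes called by edgeR or not overlapping were therefore at or below those of all genes, with 1 exception. For the edgeR call with HFD in fed mice, 1 of 10 was set against 7.50%.

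**Figure D2:**
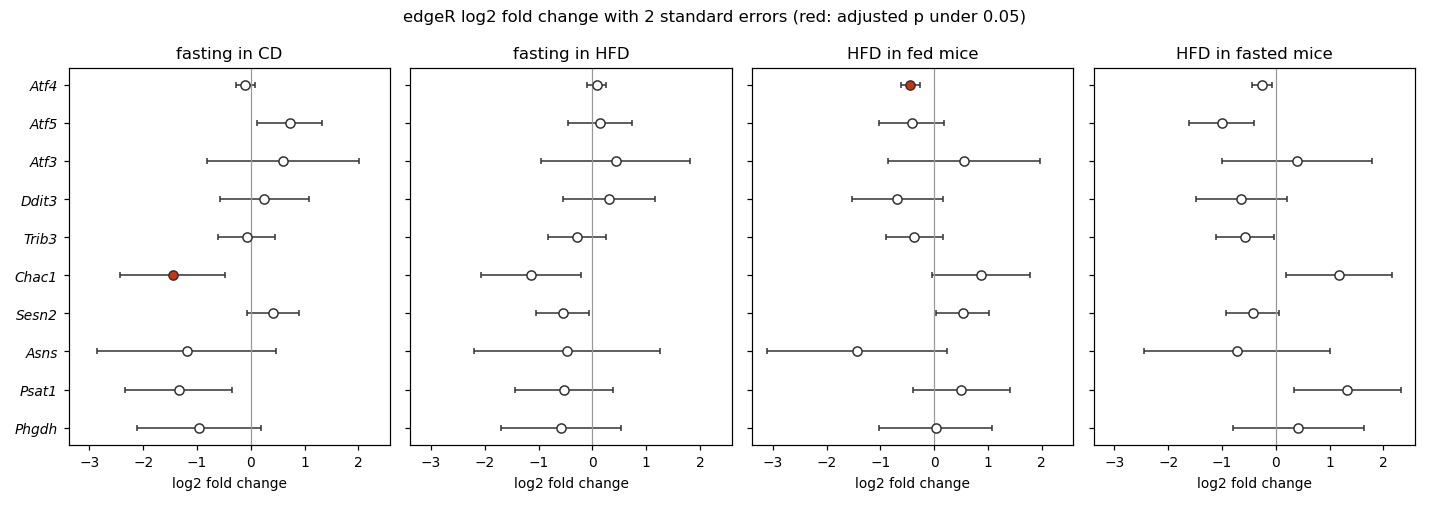
Log2 fold change of each gene (edgeR) in the 4 pairwise comparisons, with bars of 2 standard errors and red points for an adjusted p under 0.05. Red marks Chac1 with fasting in CD and Atf4 with HFD in fed mice, and the bars of Asns and Atf3 are the widest.

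Atf4, the central transcription factor (ENSMUSG00000042406, chr15:80255184-80257541), was lower on HFD. In CD fed livers it stood at 91.3, 93.6, 88.1 and 72.9 CPM, and in HFD fed livers at 62.6, 62.5, 60.2 and 69.6 CPM. The highest HFD fed library was thus below the lowest CD fed one. The means were 86.5 ± 9.29 and 63.8 ± 4.07 CPM (SD, n = 4). The fall was called under each of the 25 alternatives tried, with values from -0.51 to -0.37 and adjusted p up to 0.0442. Endothelial Cdh5 was also lower in HFD fed livers (25.3 to 28.3 against 30.3 to 34.5 CPM in CD fed livers). Kdr (37.7 to 49.4 against 51.1 to 56.1 CPM) and erythroid Alas2 (123 to 139 against 152 to 169 CPM) were too. The sums of the endothelial and erythroid lists overlapped, and the part of these cells in the Atf4 values was not tested. In fasted livers Atf4 read 77.6, 79.7, 79.6 and 86.1 CPM on CD and 65.1, 62.0, 63.2 and 79.3 CPM on HFD. Here HFD fast 4 lay within the CD range, and the difference of -0.26 (SE 0.09) did not pass (edgeR adjusted p = 0.0867). Without HFD fast 4 it was -0.35 with an adjusted p of 0.0372. That library also had the highest summed level of 6 stellate cell and fibroblast markers in its group (226 CPM against 95.9 to 138 CPM), with Col3a1 at 71.6 CPM against 9.35 to 29.7 CPM. The part of these cells in its Atf4, Trib3 and Chac1 values was not tested. With scaling by total count the Atf4 difference in fasted livers was -0.09, where the median of all genes moved to 0.17 from 0.01. Fasting gave -0.10 on CD and 0.08 on HFD, with intervals of 2 SE from -0.28 to 0.08 and from -0.10 to 0.26. The interaction for Atf4 was 0.18 (SE 0.13, edgeR adjusted p = 0.459), so the diet difference was not shown to vary with feeding state.

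Atf5 (chr7:44812256-44816658), a close relative of ATF4 whose mRNA is likewise translated under stress, had its highest levels in fasted CD livers. On CD it read 429, 350, 312 and 326 CPM fed and 647, 818, 377 and 496 CPM fasted, and on HFD 232, 204, 228 and 395 CPM fed and 308, 131, 350 and 377 CPM fasted. All 4 CD fast libraries lay above the HFD fast ones, with 377.4 against 377.0 CPM at the closest pair. HFD in fasted mice gave -1.0 (SE 0.30), which just missed the threshold (edgeR adjusted p = 0.0532). It was called without CD fast 3 (adjusted p = 0.0378) or HFD fed 4 (0.0366). Within its group HFD fed 4 was highest in Atf5 and in stellate cell and fibroblast markers (226 CPM). Krt19, a cholangiocyte marker, stood there at 10.5 CPM, against 0.394 to 0.663 CPM in the other HFD fed libraries. The part of these cells in the Atf5 values was not tested. Fasting on CD gave 0.72 (SE 0.30, adjusted p = 0.0900), and was called without CD fast 3 (0.0498), without HFD fast 2 (0.0358) or in a fit of CD libraries alone (0.0415). DESeq2 called both, with adjusted p of 0.00915 and 0.0485. Without HFD fast 2, the lowest library and the one high in Cfd, HFD in fasted mice gave -0.76 (adjusted p = 0.0781). Fasting on HFD gave 0.14 (2 SE interval -0.46 to 0.74) and the interaction -0.59 (SE 0.42, adjusted p = 0.461). Exons of Atf5 overlap those of Il4i1 on the opposite strand, which had 31 to 96 counts per library against a mean of 17784 for Atf5.

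Atf3 (chr1:191170296-191218039), an immediate stress factor of the same bZIP class and second to Asns in its spread within groups, ranged from 1.0 to 1.73 CPM in CD fed, 0.947 to 4.09 in CD fast, 0.547 to 4.76 in HFD fed and 0.586 to 6.30 in HFD fast livers. Replicate 4 was the highest library in each of CD fast, HFD fed and HFD fast. No difference passed, and the sign of 3 of its 4 pairwise differences and of its interaction turned when HFD fed 4 or HFD fast 4 was left out. In each of the 4 groups the library highest in Atf3 was also highest in the summed level of 6 stellate cell and fibroblast markers, which reached 226 CPM in both HFD fed 4 and HFD fast 4, against 95.9 to 138 CPM in the other HFD libraries. The part of these cells in the Atf3 values was not tested.

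Ddit3 (chr10:127290774-127296288) encodes CHOP, a factor linked to cell death after prolonged ER stress. Its levels on CD were 10.3, 9.24, 6.32 and 4.23 CPM fed and 20.4, 3.56, 6.14 and 5.72 CPM fasted, and on HFD 5.25, 3.37, 4.03 and 5.97 CPM fed and 5.73, 4.94, 5.56 and 6.79 CPM fasted. CD fast 1 stood alone, and the other 15 libraries did not exceed 10.3 CPM. Differences ran from -0.69 to 0.30 with SE of 0.42 to 0.43, and none passed. Without CD fast 1 the difference with fasting on CD turned from 0.25 to -0.54. Exons of Ddit3 overlap those of Mars on the opposite strand, which had 1929 to 4159 counts per library against 139 to 867 for Ddit3, and of Gm4189. Because the strand setting of the counting step is not stated, part of the Ddit3 reads is uncertain. Mars itself stood at 51.9 CPM in CD fast 1 and at 42.0 to 50.6 CPM in the other CD fast libraries.

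Trib3 (chr2:152337422-152344032), a pseudokinase that ATF4 and CHOP induce and that inhibits AKT signalling, was lowest in HFD fast livers. There it read 6.03, 5.89, 6.39 and 12.1 CPM, against 8.35, 15.4, 14.3 and 7.03 in CD fast livers. Without HFD fast 4, HFD fast lay below every CD fast value, and with it the groups overlapped. The difference was -0.57 (SE 0.27, edgeR adjusted p = 0.197), and -0.88 (adjusted p = 0.0638) without that library. In fed livers Trib3 ranged from 10.6 to 15.5 CPM on CD and from 7.37 to 11.3 CPM on HFD, a difference of -0.37 (2 SE interval -0.90 to 0.17).

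Chac1 (ENSMUSG00000027313, chr2:119351229-119354381) degrades glutathione and is among the strongest targets of ATF4. In CD livers it read 2.15, 4.6, 2.51 and 2.57 CPM fed and 0.472, 1.74, 1.63 and 0.479 CPM fasted, on 118 to 248 and 20 to 83 counts. No fasted library reached a fed one, and the means of 2.96 ± 1.11 and 1.08 ± 0.701 CPM (SD, n = 4) differed 2.73-fold in the fit. The call is close to the threshold. It was lost when any of CD fed 2, CD fed 3, CD fed 4, CD fast 1, CD fast 4 or HFD fast 3 was left out, with adjusted p of 0.0501 to 0.125 and log2 changes of -1.52 to -1.15. The call was also lost with a replicate block. On HFD the values were 8.68, 3.02, 3.82 and 6.10 CPM fed and 1.30, 1.47, 2.85 and 4.10 CPM fasted. Fed and fasted HFD libraries overlapped, since HFD fast 4 exceeded 2 of the fed ones. The difference was -1.15 (SE 0.46, edgeR adjusted p = 0.133), and the interaction of 0.30 (SE 0.67, adjusted p = 0.836) gave no call for unlike changes with fasting on the 2 diets. HFD gave 0.87 (SE 0.46, adjusted p = 0.276) in fed and 1.17 (SE 0.49, adjusted p = 0.146) in fasted livers, so that Chac1 and Atf4 had opposite signs with diet.

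Sesn2 (chr4:132492032-132510501) encodes a leucine sensor that restrains the growth kinase complex mTORC1. Its differences had opposite signs on the 2 diets. CD livers held 9.30, 9.90, 8.79 and 12.4 CPM fed and 7.57, 19.8, 13.2 and 13.3 CPM fasted, and HFD livers 14.2, 13.1, 20.7 and 10.5 CPM fed and 9.50, 12.7, 9.25 and 8.56 CPM fasted. All 4 pairs of groups overlapped. Fasting gave 0.41 (SE 0.25) on CD and -0.55 (SE 0.25) on HFD. The interaction of -0.96 (SE 0.35) had an unadjusted p of 0.0138 in edgeR and an adjusted p of 0.138. It passed, at -1.16 and an adjusted p of 0.0498, only when CD fast 1 was left out.

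Asns, Psat1 and Phgdh make asparagine and serine. Asns (asparagine synthetase, chr6:7675169-7693254) was at 15.5 CPM, or 850 counts, in CD fed 1 and at 1.19 to 1.45 CPM in the other 3 CD fed libraries. The remaining groups ranged from 0.630 to 4.17 CPM in CD fast, 0.635 to 2.75 in HFD fed and 0.272 to 2.08 in HFD fast livers. The signs of the differences that use CD fed 1 rested on that library. Fasting on CD gave -1.19 (SE 0.83) with it and 0.68 without it, and HFD in fed mice -1.44 (SE 0.84) with it and 0.43 without it. The other differences, -0.48 (SE 0.87) with fasting on HFD and -0.72 (SE 0.87) with HFD in fasted mice, stayed below 0 in all 25 alternatives and did not pass. Pancreas acinar cells are rich in Asns, and their 11 markers summed to 0.365 CPM in CD fed 1, with 9 of them at 0 in every CD fed library. The summed level of 7 Kupffer cell and macrophage markers was 439 CPM in CD fed 1 and 222 to 282 CPM in the other CD fed libraries, and its part in the Asns value was not tested.

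Psat1 (phosphoserine aminotransferase, chr19:15904678-15947337) read, on CD, 1.79, 0.575, 0.922 and 0.643 CPM fed and 0.330, 0.742, 0.217 and 0.283 CPM fasted, on 11 to 98 counts. CD fast 2 exceeded 2 of the fed libraries and the other 3 fasted libraries were below them all. The difference of -1.34 (SE 0.49) did not pass (edgeR adjusted p = 0.0583), and it was called by DESeq2 (adjusted p = 0.0263) and by edgeR without CD fed 2 (0.0492), CD fast 2 (0.0259) or HFD fast 2 (0.0480). HFD livers ranged from 0.762 to 1.80 CPM fed and from 0.453 to 1.59 CPM fasted, and HFD in fasted mice gave 1.32 (SE 0.50, edgeR adjusted p = 0.109). Phgdh (phosphoglycerate dehydrogenase, chr3:98313170-98339990), which starts the serine pathway, had 3 to 34 counts per library, so that its lowest value was at the detection floor. Its CD libraries did not overlap, at 0.166 to 0.547 CPM fed and 0.128 to 0.165 CPM fasted. The difference of -0.97 (SE 0.58) did not pass (edgeR adjusted p = 0.239), and without CD fed 1 it was -0.46.

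Some markers of other liver cells were also lower in CD fast livers. From fed to fasted CD livers, the range of summed endothelial markers went from 228 to 258 CPM down to 164 to 217 CPM, and that of stellate cell and fibroblast markers from 107 to 146 CPM down to 50.8 to 103 CPM, neither overlapping. Among the 6 stellate markers Reln (58.6 to 78.1 CPM fed and 25.6 to 55.0 CPM fasted) did not overlap, while the other 5, Des among them, did. In the erythroid list Alas2, the first enzyme of haem synthesis in red cell precursors, stood at 152 to 169 CPM fed and 62.1 to 90.4 CPM fasted, while the list's sum (306 to 402 and 199 to 404 CPM) overlapped. The sums of Kupffer cell and macrophage markers (222 to 439 and 152 to 248 CPM) and of hepatocyte markers (104929 to 135267 and 87389 to 115927 CPM) overlapped. In the first list Clec4f (92.1 to 117.5 and 58.1 to 90.4 CPM) and Adgre1 (15.3 to 42.3 and 6.89 to 13.3 CPM) were lower without overlap. In the second Ttr (7041 to 8606 and 2902 to 5116 CPM) was lower and Cyp2e1 (4044 to 6399 and 8759 to 11598 CPM) higher. The sum of cholangiocyte markers was 26.0 to 31.0 CPM fed and 29.7 to 62.3 CPM fasted, most of it Spp1 (at least 19.4 CPM fed and 23.5 to 57.5 CPM fasted), while Sox9 stood at 4.08 to 6.45 CPM fed and 1.83 to 4.53 CPM fasted. The medians of adipocyte markers (2.65 and 3.04 CPM) and lymphocyte markers (2.35 and 2.60 CPM) were no lower after fasting. All 6 endothelial, 6 stellate and 7 Kupffer cell markers were at 3 counts or more in the libraries. Their part in the lower Chac1, Psat1 and Phgdh values of CD fast livers was not tested.

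Across libraries the 10 genes did not move as a unit. Over the 45 pairs of them the median Pearson r of log2 CPM in 16 libraries was 0.19, with 28 positive pairs. After each group's mean was subtracted, 9 pairs had an r over 0.5. These correlations share libraries and scaling and are given as descriptions. The closest pair was Asns and Psat1 (r = 0.89, Spearman's rho 0.92), which kept an r of 0.86 without CD fed 1 and HFD fast 2, the libraries farthest from the Asns median. Atf5 followed both, with r = 0.73 to Asns and 0.72 to Psat1, and Phgdh gave 0.69 to Asns. Chac1 and Trib3 formed another pair (r = 0.75, rho 0.80). Ddit3 and Sesn2 were opposed (r = -0.80, rho -0.69), at -0.53 without CD fast 1 and CD fast 2. In these deviations Atf4 reached 0.52 with Phgdh and no other r over 0.5. Before group means were subtracted, its r was 0.61 with Atf5, 0.59 with Trib3, 0.50 with Ddit3 and 0.27 with Phgdh. It was then below 0 with Chac1 (-0.26), Psat1 (-0.27) and Sesn2 (-0.34).

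**Figure D3:**
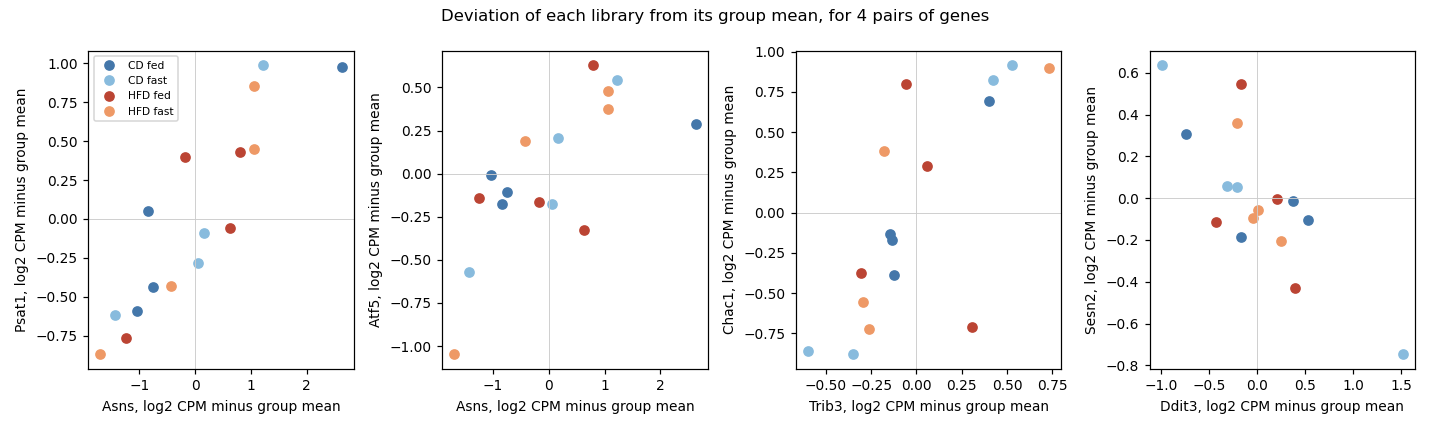
Log2 CPM of each library minus its group mean for 4 pairs of genes, 1 point per library and 1 colour per group. Asns with Psat1 (r = 0.89), Asns with Atf5 (0.73) and Trib3 with Chac1 (0.75) rise together, and Ddit3 with Sesn2 (-0.80) is opposed with CD fast 1 and CD fast 2 at the ends.

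Outside the 10, the genes with a mean of at least 100 counts whose log2 CPM was most like theirs over 16 libraries had r of 0.80 to 0.90. They were Txndc11 and Cib3 for Atf4, Tnfaip1 and Kif21a for Atf5, Bicc1 and Mmd2 for Atf3, and Trim39 and Pygo2 for Ddit3. For Trib3 they were Nr1d1 (r = 0.86) and Ruvbl2, for Chac1 Kdm3b and D230025D16Rik, and for Sesn2 Vrk1 and Slc16a10. For Asns they were Cdh1 and Mpzl1, for Psat1 Tlr7 and Phka1, and for Phgdh Pfkp and Vps35l. Each was picked as the highest of many correlations, so a high r follows in part from the choice. These r also include differences between groups.

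Upstream of Atf4, the ER-stress kinase PERK (Eif2ak3) was lower with fasting on CD (-0.85, SE 0.17, edgeR adjusted p = 0.00227) and with HFD in fed mice (-0.83, SE 0.17, adjusted p = 0.00885), comparisons that share the CD fed libraries. Its interaction was also called (1.0, SE 0.24, edgeR adjusted p = 0.0407). That was 1 of 15 genes of the eIF2 machinery, beside 2.59% of all genes. For the interaction DESeq2 called 1 of these 15 higher and 2 lower, and limma-voom called 0, beside 1079 and 357 of all genes. The amino acid sensing kinase GCN2 (Eif2ak4) was 0.23 higher with HFD in fed mice and 0.27 lower with fasting on HFD, and Ppp1r15a, whose product GADD34 returns eIF2 to its unphosphorylated form, was lower in HFD fast livers than in CD fast (-0.73) and HFD fed ones (-0.52). Of 15 genes of the eIF2 machinery, 3 were called with fasting on CD (2 lower), 3 with fasting on HFD (3 lower), 2 with HFD in fed mice (1 lower) and 2 with HFD in fasted mice (2 lower). Over all genes the shares called were 25.2%, 8.86%, 7.50% and 7.70%, and with fasting on CD the count of 3 in 15 lay below that share. The others called were Eif2s2 (-0.30) and Eif2b4 (0.28) with fasting on CD, and Eif2b1 with fasting on HFD (-0.24) and HFD in fasted mice (-0.28).

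Cytosolic aminoacyl-tRNA synthetases, which charge tRNAs and several of which are ATF4 targets, fell with fasting on CD in 8 of 20 genes and rose in 0. The share of all genes called lower was 11.5%. The median of the list was -0.13 against -0.01 for all genes, and the leading members were Cars (-1.41, SE 0.16), Tars (-1.09, SE 0.14), Nars (-0.48, SE 0.06) and Yars (-0.54, SE 0.07), with edgeR adjusted p from 2.69e-05 to 0.000103. HFD in fed mice lowered 6 of 20 (4.22% of all genes called lower), led by Tars (-0.60), Iars (-0.28), Yars (-0.28) and Cars (-0.61). Fasting on HFD lowered 3 of 20 (4.07% of all genes), namely Tars (-0.56), Mars (-0.33) and Sars (-0.21). With HFD in fasted mice edgeR called 0 of 20 (7.70% of all genes). Of the 20, 4 had an unadjusted p under 0.05, beside 3905 of all 15075 genes. The list had 12 genes below 0, 8 above it and a median of -0.01. DESeq2 called 1 of the 20 there, beside 1967 of all genes, and limma-voom 0. Cars was the 1 gene of the list with an interaction call (1.06, SE 0.22, edgeR adjusted p = 0.0220).

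Among 13 enzymes of serine, proline and one-carbon metabolism, fasting on CD lowered 4 and raised 2, beside 25.2% of all genes called. Aldh1l1 (-0.96), which oxidises formyl-tetrahydrofolate, and Psph (-0.67), the last step of serine synthesis, fell, and Gpt2 (0.86), an alanine aminotransferase, and Cth (1.06), which makes cysteine, rose. The levels of Psph, like those of Psat1 and Phgdh, were low, at 5.94 CPM fed and 3.73 CPM fasted. HFD in fed mice raised Mthfd1l (2.29) and lowered Aldh1l1 (-0.73), 1 of 13 each way, beside 7.50% of all genes called. There limma-voom called 0 of the 13 higher and 1 lower, and DESeq2 1 higher and 1 lower. HFD in fasted mice lowered Cth (-1.16) and Cbs (-0.53), 2 of 13 beside 7.70% of all genes. Fasting on HFD lowered Cbs (-0.67), 1 of 13 beside 8.86%. The interaction was called for 1 of the 13, beside 2.59% of all genes. Of the 12 other targets of ATF4 or CHOP, Herpud1 (-0.78) and Bbc3 (-0.53) fell with fasting on CD, where 11.5% of all genes were called lower. With HFD in fed mice, Bbc3 (-0.92) and Vegfa (-0.36) fell and Vldlr (1.72), a lipoprotein receptor, rose, or 3 of 12 beside 7.50% of all genes called.

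Of 5 paralogs of the 10 genes, 3 fell with fasting on CD, beside 11.5% of all genes. They were Sesn3 (-0.76), Sesn1 (-0.59) and Chac2 (-0.51), beside 0.41 for Sesn2 and -1.45 for Chac1. Among 13 other bZIP factors, fasting on CD raised Jund (0.64) and Nfe2l1 (0.48) and lowered Nfe2l2 (-0.43), a share near the 25.2% of all genes called. Jund was lower with HFD in fasted mice (-0.75), with an interaction of -0.88 (edgeR adjusted p = 0.0299). Of 9 amino acid transporters tested out of 10 listed, Slc7a2 (1.18) rose with fasting on CD, Slc6a9 (0.91) rose with HFD in fed mice and Slc38a2 (-0.90) fell with HFD in fasted mice. This was 1 of 9 in each comparison, beside 25.2%, 7.50% and 7.70% of all genes called.

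ER chaperones answer to ATF6 and XBP1, the other arms of the unfolded protein response, and are set beside the 10 genes for that reason. HFD in fed mice lowered 10 of 14 (4.22% of all genes called lower), with a list median of -1.02 against 0.01 for all genes, led by Syvn1 (-1.25), Pdia4 (-1.07), Manf (-1.43) and Hsp90b1 (-0.75). Fasting on CD, which shares the CD fed libraries with that comparison, lowered 6 of 14 (11.5% of all genes), led by Pdia6 (-1.23), Sdf2l1 (-1.48), Edem1 (-0.69) and Dnajc3 (-0.48). In the comparisons without CD fed livers edgeR called 0 of 14, with 3 at an unadjusted p under 0.05 in each. With fasting on HFD, 8.86% of all genes were called and 3864 of 15075 had an unadjusted p under 0.05. With HFD in fasted mice these were 7.70% and 3905. The list median was 0.18 with fasting on HFD, where 9 of 14 lay above 0. It was -0.29 with HFD in fasted mice, where 11 of 14 lay below 0. DESeq2 called 0 and 1 of the 14 there, beside 1985 and 1967 of all genes, and limma-voom 0 in both. The interaction, which also uses the CD fed libraries, was above 0 for 14 of 14 chaperones. Its median was 0.65 against -0.002 for all genes. With fasting on CD and with HFD in fed mice 14 of 14 lay below 0, so these counts are not independent. Of the 14, 6 had an unadjusted p under 0.05, beside 3045 of all 15075 genes. There edgeR called 0 of the chaperones, limma-voom 0 and DESeq2 2, beside 390, 357 and 1079 of all genes. The medians of the 10 stress response genes were -0.17 with HFD in fed mice, -0.09 with fasting on CD, -0.38 with fasting on HFD and -0.34 with HFD in fasted mice. A difference between these lists was not tested.

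**Figure D4:**
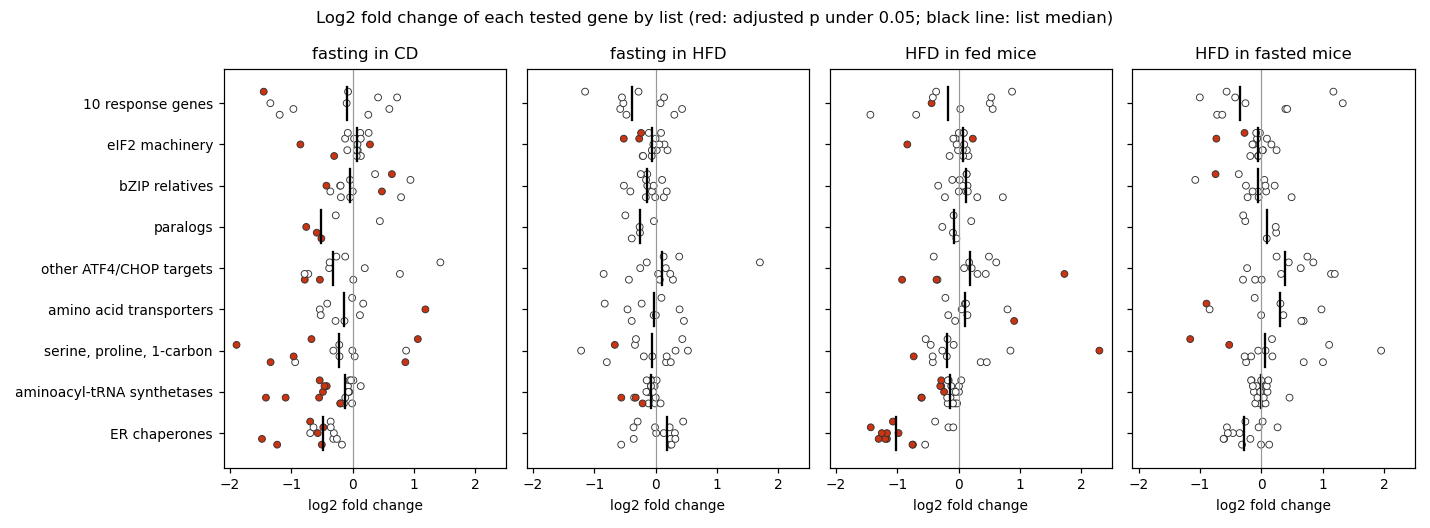
Log2 fold change (edgeR) of every tested gene of each list in the 4 pairwise comparisons, with red for an adjusted p under 0.05 and a black line for the list median. ER chaperones lie left of 0 with HFD in fed mice (10 of 14 called lower). With fasting in CD 18 of 20 synthetases lie left of 0 (8 called lower), and the 10 response genes spread to both sides.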

How the data were processed

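Mouse liver RNA was measured in 16 libraries, 4 in each of 4 groups, assigned and numbered from the sample labels. The labels give 1 library per numbered sample. They do not state outright that each came from its own mouse, so p-values measure the spread between these libraries. Values are raw counts, whole numbers per Ensembl gene, as the authors deposited them. To make them the authors enriched poly(A) RNA, aligned reads to GRCm38 with TopHat2 2.0.11 (run for first-strand libraries, with iGenomes annotation) and counted with featureCounts, per the labels and methods. Whether counting used strand, and which annotation release, is not given in the sources used here, so overlapping genes are uncertain.

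The analysis used edgeR 4.0.16 in R 4.3.3 (filterByExpr, TMM scaling, 1 coefficient per group, quasi-likelihood tests, 12 residual degrees of freedom). Adjusted p are Benjamini-Hochberg values over the 15075 genes tested, with a threshold of 0.05, and intervals are 2 standard errors either way. Log2 CPM used a prior count of 2. DESeq2 1.42.0, limma 3.58.1, other scalings and filters, fits restricted to the compared groups, a replicate block and the omission of each library were alternatives. The procedures were tested on simulated counts. Gene symbols, positions and exonic lengths came from GENCODE (GRCm38) and promoters from RefSeq (GRCm38.p6). No pair of libraries agreed within sampling noise (lowest chi-square per gene 37.6), and floors cover counting error only.

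The 10 genes, the gene lists and the markers were chosen with earlier results of these data known. Named genes were the 10, up to 4 called genes with the smallest p per list and comparison, and for each of the 10 the 2 genes most like it. Proteins were not analysed here.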

Additional observations from a re-analysis of the deposited data

Results flagged for a closer look

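In 6 of 40 groups of 4 libraries, 1 library stood farther from the rest than Dixon's 95% critical value for groups of that size allows. The ratio was taken on CPM, not on log2 CPM. A chance rate of about 1 in 20 holds for normally distributed values, so it cannot be set against the 6 of 40 here. The values were Asns in CD fed 1 (15.5 CPM), Phgdh in CD fed 1 (0.547 CPM), Trib3 in CD fed 2 (15.5 CPM), Trib3 in HFD fast 4 (12.1 CPM), Atf5 in HFD fed 4 (395 CPM) and Ddit3 in CD fast 1 (20.4 CPM). Each was the highest library of its group, and the 6 values came from 5 libraries. No interaction of the 10 genes passed its test.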

How the results depend on the processing

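The 50 differences of the 10 genes were recomputed in 1222 alternatives. Of these, 1164 kept direction and side of the threshold, 7 lost a call (all Chac1 with fasting in CD), 14 gained one and 37 changed sign. Counts of calls moved as follows. The cause was not tested. By DESeq2, all-gene calls were 1079 for the interaction, 1967 for HFD in fasted mice and 1768 for HFD in fed mice, and 3 of the 10 were called with fasting in CD and 2 with HFD in fasted mice. A fit of only the groups compared gave 90 all-gene calls for HFD in fasted mice and 2 of the 10 with fasting in CD. Total count scaling gave 2099 for HFD in fasted mice, 88.1% of them higher against 39.6%. It moved the share higher to 69.6% from 47.4% for the interaction, 44.3% from 54.4% for fasting in CD, 67.6% from 54.0% for fasting in HFD and 68.8% from 43.8% for HFD in fed mice. Upper quartile scaling gave 51.2% for HFD in fasted mice, 52.6% for HFD in fed mice, 51.2% for the interaction and 61.2% for fasting in HFD. Same-numbered libraries did not all deviate together (r over 0.1 in 8 of 24 pairs, from -0.24 to 0.66, the highest for HFD fed 4 with HFD fast 4). With the replicate block 0 of the 10 were called with fasting in CD (Chac1 -1.46, adjusted p = 0.0641), and the signs of Atf3 for the interaction (0.20) and Phgdh for HFD in fed mice (-0.078) turned. With limma-voom they turned for Asns (-0.12) and Atf3 (0.12) for the interaction and for Phgdh (-0.24) for HFD in fed mice.

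With 1 library left out, all-gene calls ran from 147 (without CD fed 2) to 461 for the interaction, 505 (without HFD fed 1) to 1533 for fasting in HFD, 535 (without HFD fast 4) to 1354 for HFD in fasted mice and 514 (without CD fed 2) to 1268 for HFD in fed mice. Calls among the 10 ran from 0 to 3 with fasting in CD, 0 to 1 with HFD in fasted mice and 0 to 1 for the interaction. For the interaction, log2 values ran from -1.16 to 1.25 for Asns, -1.03 to 0.75 for Atf3, -0.075 to 0.62 for Chac1, -0.21 to 0.85 for Ddit3 and -0.12 to 1.24 for Phgdh. With fasting in CD they ran from -1.72 to 0.68 for Asns, -0.54 to 0.52 for Ddit3 and -0.26 to 0.087 for Trib3. With fasting in HFD they ran from -0.44 to 1.35 for Atf3, -0.0073 to 0.12 for Atf4, -0.011 to 0.40 for Atf5 and -0.94 to 0.27 for Phgdh. With HFD in fed mice they ran from -1.76 to 0.43 for Asns, -0.36 to 0.87 for Atf3 and -0.82 to 0.54 for Phgdh, and with HFD in fasted mice from -0.48 to 0.98 for Atf3 and -0.90 to 0.16 for Ddit3. Phgdh had the lowest depth, 3 to 34 counts per library.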
